A study of Mus musculus with 2 samples.

Results

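The genes described here encode 8 scavenger and endocytosis receptors of the liver sinusoidal endothelial cell (LSEC), namely Stab1, Stab2, Mrc1, Lyve1, Fcgr2b, Msr1, Scarb1 and Cd36. They were picked by symbol from the 32285 genes listed in the count files, and each symbol matched exactly 1 gene. Single-cell RNA-seq was run on liver cells enriched with magnetic beads against CD146, an endothelial surface protein, from mice 3 to 5 months of age. Maf LSEC-KO mice carried 1 copy of the Clec4g-iCre transgene and 2 floxed copies of Maf (Clec4g-iCre tg/wt, Maf fl/fl), so that Cre driven by a Clec4g promoter deletes the transcription factor c-Maf in LSECs from late fetal life. Controls were littermates without Cre whose Maf was floxed on both copies or on 1 copy (Clec4g-iCre wt/wt, Maf fl/fl or Maf fl/wt). The labels call these controls WT. Each condition was a single library made from the pooled cells of 3 mice, so the spread between mice is not measured and no test between conditions is possible. Every interval given is a 95% interval that covers counting error only.

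LSECs line the hepatic sinusoids and are among the most active scavenger cells of the body. They clear denatured proteins, matrix fragments such as hyaluronan, modified lipoproteins, immune complexes and glycoproteins from the blood by receptor-mediated endocytosis through clathrin-coated pits. Kupffer cells, the resident liver macrophages, share part of this receptor set. The sinusoid also runs from the portal tract to the central vein, and LSECs differ in gene expression along that axis.

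In the mouse genome build mm10 the receptors are spread over 7 chromosomes, and all 8 are annotated as protein-coding genes. Stab1 lies on chromosome 14 (31139013 to 31168641, minus strand), Stab2 on chromosome 10 (86841198 to 87008025, minus) and Mrc1 on chromosome 2 (14229392 to 14332057, plus). Lyve1 lies on chromosome 7 (110850607 to 110863239, minus), Fcgr2b on chromosome 1 (170958617 to 170976547, minus) and Msr1 on chromosome 8 (39581685 to 39642673, minus). Scarb1 (125277087 to 125341094, minus) and Cd36 (17781690 to 17888801, minus) are both on chromosome 5, far apart from each other. Maf itself is on chromosome 8 (115682942 to 115707794, minus).

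The sequences just upstream of 4 of these genes are shown because 3 of the genes were lower in Maf LSEC-KO LSECs and the fourth, Cd36, was higher. They are RefSeq promoter windows of build GRCm38.p6, the same assembly as mm10, written 5′ to 3′ on the strand of the gene and cut back to the bases that lie outside annotated exons. Capitals mark TGCTGA, the letters of one arm of the palindromic site that c-Maf binds, searched on both strands.
Stab1, chr14:31168642-31168891, minus strand: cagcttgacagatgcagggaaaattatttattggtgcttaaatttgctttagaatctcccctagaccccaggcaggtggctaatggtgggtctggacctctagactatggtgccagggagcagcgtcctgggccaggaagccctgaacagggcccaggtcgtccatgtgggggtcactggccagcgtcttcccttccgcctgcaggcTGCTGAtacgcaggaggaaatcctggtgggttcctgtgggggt
Stab2, chr10:87008026-87008192, minus strand: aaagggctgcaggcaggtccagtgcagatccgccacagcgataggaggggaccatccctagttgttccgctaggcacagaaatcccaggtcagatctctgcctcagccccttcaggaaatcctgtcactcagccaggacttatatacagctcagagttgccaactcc
Mrc1, chr2:14229164-14229391, plus strand: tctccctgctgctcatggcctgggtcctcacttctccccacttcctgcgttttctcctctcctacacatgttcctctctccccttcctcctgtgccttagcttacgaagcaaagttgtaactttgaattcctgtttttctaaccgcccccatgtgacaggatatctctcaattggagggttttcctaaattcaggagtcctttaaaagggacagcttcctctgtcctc
Cd36, chr5:17835897-17836146, minus strand: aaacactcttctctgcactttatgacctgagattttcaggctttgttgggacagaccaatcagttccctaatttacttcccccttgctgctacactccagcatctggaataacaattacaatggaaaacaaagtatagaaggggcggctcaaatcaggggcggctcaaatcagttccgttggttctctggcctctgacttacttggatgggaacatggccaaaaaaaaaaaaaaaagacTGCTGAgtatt

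Over the 250 bases before the start of the gene, TGCTGA occurred once for Stab1, its first base 43 bases upstream of the start, and once for Cd36, 11 bases upstream. It was not found in the windows of Stab2, Mrc1 and Fcgr2b. Of all 32851 promoter windows of that length in the table, 16.1% held it on one strand or the other. The letters TGAGTCA, which AP-1 factors bind, and AGATAA, which GATA factors bind, were in none of the 5 windows, against 4.46% and 9.99% of all windows. Neither motif shares its full letters with TGCTGA. The Cd36 and Fcgr2b windows precede the starts that RefSeq gives, which lie inside the genes as annotated by GENCODE. Each thus stands for only 1 of the annotated starts. For Fcgr2b the longest stretch outside annotated exons was 47 of the 250 bases. Promoter sequence was not used here for Lyve1, Msr1 and Scarb1.

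The libraries held 47681895 UMIs in 5664 barcodes (control) and 89872764 UMIs in 7091 barcodes (Maf LSEC-KO), where a UMI marks 1 captured RNA molecule. Of these, 4961 and 5423 cells passed the filters, 10 barcodes occurred in both libraries, and likely doublets were then removed. Cells were clustered and named without the 8 receptors. LSECs, meaning endothelial-like cells with no UMI of the large-vessel gene Vwf, numbered 4092 (control) and 3154 (Maf LSEC-KO), with a median of 8384 and 14085.5 UMIs. The immune classes were small, with 224 and 395 macrophage-like, 48 and 39 B cell-like, 30 and 62 T or NK cell-like and 41 and 86 neutrophil-like cells. Levels are UMIs of a gene per 1000000 UMIs outside mitochondrial and ribosomal protein genes (CPM), summed over the cells of a group.

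The deleted gene was checked first. Maf was 3478 CPM in control LSECs and 121 CPM in Maf LSEC-KO LSECs, 28.7-fold lower. Clec4g, an LSEC lectin, was 3032 and 1524 CPM. In the Maf LSEC-KO library 2498 of the 3154 LSECs had no Maf UMI.

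In LSECs, 5 of the 8 receptors were at least 2-fold lower in the Maf LSEC-KO library, against 5.45% of the 4512 genes that reached 50 CPM in one library or both. None of the 8 was at least 2-fold higher, against 8.31% of those genes. The median log2 ratio was -1.52 over the receptors and 0.11 over all these genes. Fcgr2b and Stab2 differed most, Mrc1, Msr1 and Stab1 followed, Lyve1 was less than 2-fold lower, and Scarb1 and Cd36 were higher.

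Stab1 and Stab2 encode the stabilins, large receptors that take up hyaluronan, modified lipoproteins and other waste molecules. Stab1 was 1340 CPM in control and 571 CPM in Maf LSEC-KO LSECs, which is -1.23 as a log2 ratio (interval -1.25 to -1.21). Stab2 was 1640 and 178 CPM, a log2 ratio of -3.20 (-3.24 to -3.17), or 9.21-fold lower. The intervals of both log2 ratios lie apart, so the paralogs differed in the size of their change beyond counting error. Stab2 stood 29th and Stab1 173rd from the lowest log2 ratio of the 4512 genes.

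Mrc1 encodes the mannose receptor, which binds glycoproteins with terminal mannose and collagen fragments. Its level was 2555 CPM in control and 729 CPM in Maf LSEC-KO LSECs, with a log2 ratio of -1.81 (-1.83 to -1.79). Lyve1 encodes a hyaluronan-binding protein that is also a marker of lymphatic endothelium. It was 724 and 394 CPM, a log2 ratio of -0.88 (-0.91 to -0.85), which made it the only one of the 6 lower receptors that stayed within 2-fold. It passed 2-fold when the UMIs of all genes were the denominator (-1.07) and when LSECs with a Vwf UMI were kept (-1.08).

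Fcgr2b encodes the inhibitory Fc gamma receptor, which in LSECs takes up immune complexes. It was 2498 CPM in control and 232 CPM in Maf LSEC-KO LSECs, 10.8-fold lower, with a log2 ratio of -3.43 (-3.46 to -3.40). This was the lowest log2 ratio of the 8 receptors and the 25th lowest of the 4512 genes.

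The last 3 genes encode class A and class B scavenger receptors. Msr1, scavenger receptor A, was 365 CPM in control and 95.3 CPM in Maf LSEC-KO LSECs (log2 ratio -1.94, -1.99 to -1.88). The class B receptors went the other way. Scarb1, the receptor for high-density lipoprotein, was 137 and 180 CPM (log2 ratio 0.39, 0.34 to 0.45), and Cd36, which takes up fatty acids and oxidized lipoproteins, was 1101 and 1916 CPM (log2 ratio 0.80, 0.78 to 0.82). With the UMIs of all genes as the denominator these became 0.20 for Scarb1 and 0.61 for Cd36, still above 0. RNA of macrophages among the LSECs, scaled from the UMIs of the macrophage gene C1qa, would account for at most 1.60% of the level of any of the 8 receptors in LSECs of either library. This estimate rests on 1 gene and on the mean of macrophage-like cells, which themselves held LSEC RNA. The part of macrophage RNA was not tested beyond it.

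**Figure D1:**
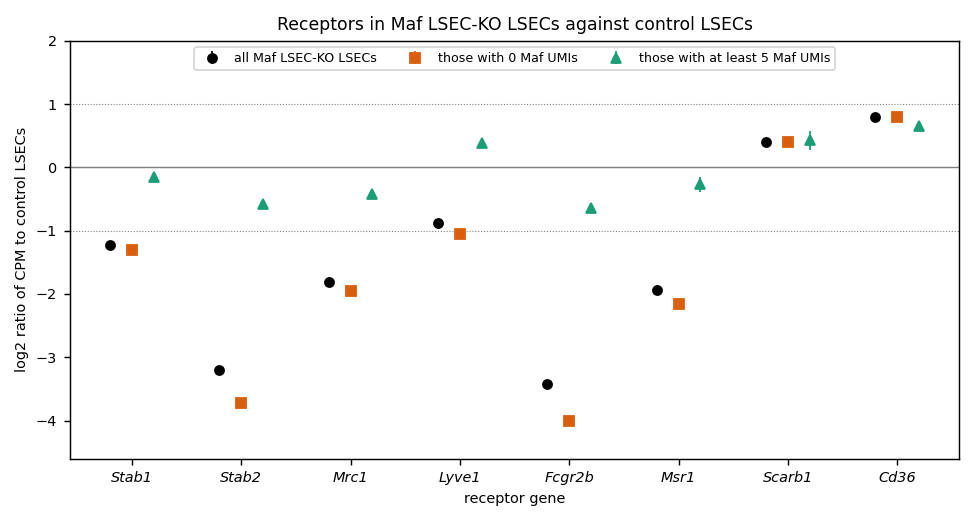
Log2 ratio of CPM to control LSECs for each receptor (x axis), with 95% counting intervals, for all 3154 Maf LSEC-KO LSECs (circles), the 2498 without a Maf UMI (squares) and the 196 with at least 5 Maf UMIs (triangles). Dotted lines mark 2-fold, and the triangles of all 8 receptors lie between them.

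The difference was seen in the share of LSECs with a UMI as well as in the summed level. Each LSEC was thinned at random to 2000 UMIs, which kept 3924 control and 3091 Maf LSEC-KO LSECs. Without thinning, a UMI of Stab2 was found in 95.8% of control and 53.3% of Maf LSEC-KO LSECs despite the greater depth of the latter.

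After thinning, 12.9% of control LSECs and 79.7% of Maf LSEC-KO LSECs had no Stab2 UMI. For Fcgr2b the corresponding shares were 10.1% and 78.4%. Most Maf LSEC-KO LSECs thus had no UMI of either gene at this depth. For Mrc1 the shares without a UMI were 4.51% and 39.5%, and for Stab1 15.3% and 43.2%. Lyve1 and Msr1 were already without a UMI in most thinned control LSECs, at 51.0% and 63.9%, and reached 73.2% and 85.9%. Scarb1 differed little, with 79.1% and 77.4% of thinned LSECs lacking a UMI. Cd36 showed the opposite pattern, with 26.9% of control and 10.6% of Maf LSEC-KO LSECs lacking a UMI and a median of 1 and 3 UMIs per thinned cell.

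**Figure D2:**
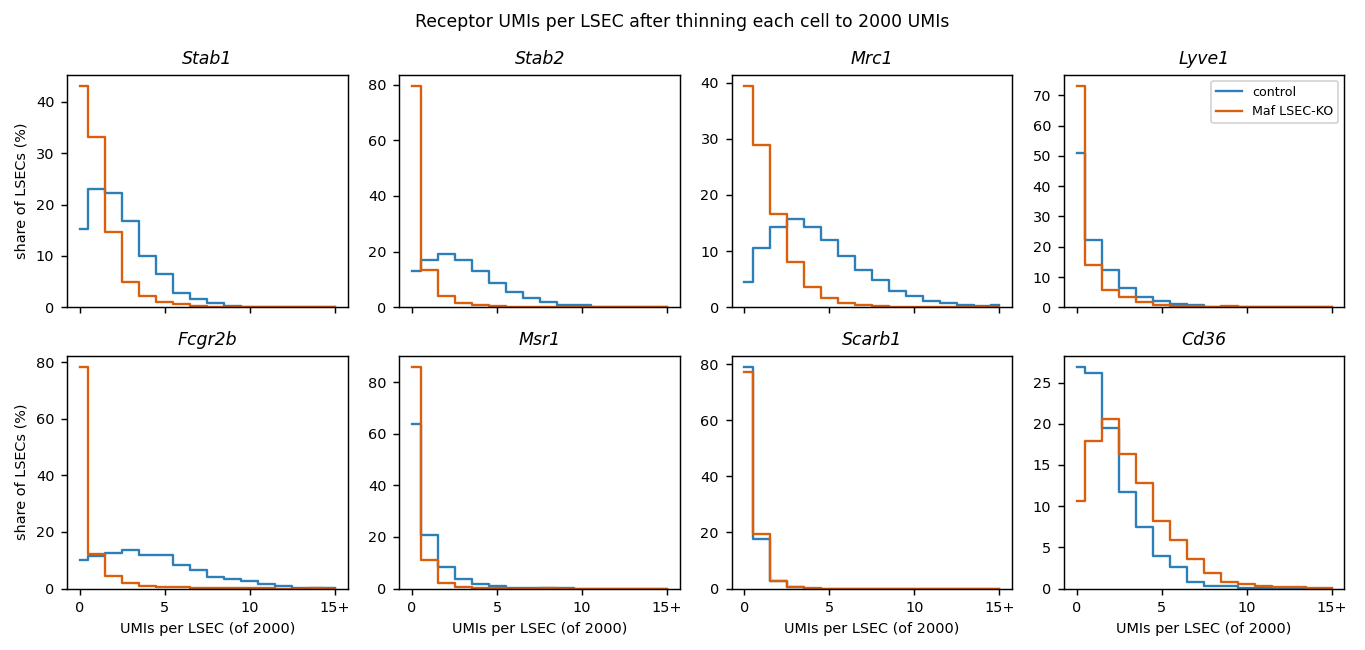
Share of LSECs (y axis, percent) with each number of UMIs (x axis, 15 and more pooled) of a receptor after thinning every cell to 2000 UMIs, in control (blue, 3924 cells) and Maf LSEC-KO LSECs (orange, 3091 cells). For Stab2 and Fcgr2b the orange line holds 79.7% and 78.4% of the cells at 0, and for Cd36 it lies to the right of the blue line.

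Of Stab1, Stab2, Mrc1, Lyve1 and Fcgr2b, all 5 were found together in 34.6% of thinned control LSECs and in 2.75% of thinned Maf LSEC-KO LSECs. None of these 5 was found in 0.178% of control and 11.2% of Maf LSEC-KO LSECs. Over the 28 pairs, Spearman's rho had a median of 0.06 and a highest value of 0.26 (Stab1 with Stab2) across 3924 control LSECs, and a median of 0.07 and a highest value of 0.22 (Stab2 with Fcgr2b) across 3091 Maf LSEC-KO LSECs. Pearson's r on the same UMIs was highest for Stab1 with Stab2 (0.25) in the control and for Stab2 with Fcgr2b (0.38) and Stab2 with Mrc1 (0.37) in Maf LSEC-KO LSECs. These cells share 1 library and a fixed depth, and in counts this sparse such weak values are no finding.

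Maf LSEC-KO LSECs were not uniform. A small set of 196 cells held at least 5 Maf UMIs each, at a median depth of 9896.5 UMIs against 13948.5 for the 2498 LSECs without one. Compared with the latter, 6 of the 8 receptors were at least 2-fold higher in the cells with Maf, against 4.01% of 4543 genes, and none was at least 2-fold lower, against 3.92%.

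Fcgr2b was 156 CPM in Maf LSEC-KO LSECs without a Maf UMI and 1594 CPM in those with at least 5, a log2 ratio of 3.36 (3.29 to 3.42). Stab2 was 124 and 1093 CPM, a log2 ratio of 3.14 (3.06 to 3.22). These were the largest ratios of the 8. Msr1 (82.0 and 303 CPM), Mrc1 (660 and 1907 CPM), Lyve1 (351 and 946 CPM) and Stab1 (541 and 1202 CPM) had log2 ratios of 1.89, 1.53, 1.43 and 1.15. Scarb1 was 180 and 184 CPM, with a log2 ratio of 0.02 whose interval of -0.13 to 0.18 spans 0. Cd36 was 1908 and 1736 CPM, a log2 ratio of -0.14 (-0.19 to -0.09). The groups were set by Maf UMIs and not by the receptors.

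Set against control LSECs, the cells with at least 5 Maf UMIs had none of the 8 receptors 2-fold lower or higher, where 0.541% of 4248 genes were that much lower and 1.48% higher. The log2 ratios ran from -0.65 (Fcgr2b) to 0.66 (Cd36). Cd36 was 1736 CPM in these cells, close to its level in LSECs of the same library without Maf and above the 1101 CPM of control LSECs. All 5 of Stab1, Stab2, Mrc1, Lyve1 and Fcgr2b were found together in 33.5% of them after thinning and in 0.613% of those without a Maf UMI. Macrophages also express Maf, and C1qa was 65.0 CPM in the cells with at least 5 Maf UMIs, 18.9 CPM in those without and 5779 CPM in macrophage-like cells of that library. The part of macrophage RNA in these values was not tested.

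Clusters of LSECs, made without the receptors, held mostly cells of one library or of the other. Cluster 1 held 1612 control and 57 Maf LSEC-KO LSECs. In it Stab2 was 1818 CPM in the control and 1464 CPM in the Maf LSEC-KO cells, and Fcgr2b was 2813 and 2285 CPM. Cluster 2, with 13 control and 1320 Maf LSEC-KO LSECs, was led by Ly6c1, Ccl5 and Serping1 and had 99.2 CPM of Stab2 and 163 CPM of Fcgr2b in its Maf LSEC-KO cells. Cluster 3, with 2 control and 1059 Maf LSEC-KO LSECs, had Astn1 and Kcne3 among its leading genes. It had 184 CPM of Stab2 and 203 CPM of Fcgr2b in Maf LSEC-KO cells. Clusters 5 and 6 held 868 and 618 control but 35 and 50 Maf LSEC-KO LSECs, at low median depths of 4828 and 3365 UMIs. The leading genes of both included the hepatocyte genes Alb, Serpina1c and Trf, and those of cluster 6 also hemoglobin genes. How far these clusters weigh on the control levels was not tested.

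The cycling cluster 7, led by histone genes, Mki67 and Top2a, held enough cells of both libraries to compare. Its 65 control LSECs had 1123 CPM of Stab2 and 1611 CPM of Fcgr2b, and its 524 Maf LSEC-KO LSECs had 138 and 122 CPM. Cd36 was 771 and 1466 CPM there, so the directions seen over all LSECs were also present among cycling cells. Cluster 8, with 59 cells of the Maf LSEC-KO library led by Igfbp3, Sparcl1 and Cxcl12, also had the stellate or mesenchymal genes Dcn, Col1a2, Col3a1 and Rgs5 among its leading genes. The periportal LSEC gene Lpl and the capillary or tip gene Apln were among them too. General LSEC markers were among the leading genes of clusters 1 and 4 only, so their absence is not particular to cluster 8. Cluster 8 had 15.7 CPM of Lyve1 and 278 CPM of Scarb1, and the part of stellate or mesenchymal RNA in these values was not tested.

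Over the Maf LSEC-KO clusters of at least 50 cells, the log2 ratio of the highest to the lowest level was 6.41 for Lyve1, 5.53 for Fcgr2b and 4.96 for Stab2. The Lyve1 value rests on cluster 8, without which it was 2.27 (277 to 1334 CPM), against 4.23 for Fcgr2b and 3.88 for Stab2. Without cluster 8 the counts of receptors at least 2-fold lower or higher in LSECs were still 5 and 0. In the control clusters the range was 2.04 for Msr1 and 1.34 for Lyve1, an order that turned at the finer clustering resolution of 0.5, where they were 1.39 and 1.62.

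The receptors also differed along the sinusoid. LSECs of each library were ranked by a score from landmark genes of the pericentral and periportal ends, with the receptors left out of the landmarks, and cut into 4 bins of equal size, from bin 1 (pericentral) to bin 4 (periportal). Of the 8 receptors, 2 were at least 2-fold higher in the periportal than the pericentral bin of control LSECs, where 1.48% of 4126 genes were, and none was at least 2-fold lower, where 1.87% were. The landmarks were found in each library by itself and numbered 33 pericentral and 10 periportal genes for control LSECs but 6 and 21 for Maf LSEC-KO LSECs, so a bin of one library need not match that of the other. No UMI of the starting landmarks was found in 32.3% of control and 79.4% of Maf LSEC-KO LSECs.

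Msr1 had the steepest gradient, from 52.3 CPM in control bin 1 through 208 and 440 CPM to 827 CPM in bin 4, a log2 ratio of 3.98 (3.84 to 4.13). Cd36 went from 594 through 1009 and 1349 to 1483 CPM, a log2 ratio of 1.32. Both increased at every step toward the portal end, although Cd36 was under 2-fold, at a log2 ratio of 0.94, when LSECs without a UMI of the pericentral genes Cdh13, Wnt2, Rspo3 and Wnt9b were set against those with the largest share of them. Lyve1 peaked in the middle, at 569, 827, 892 and 554 CPM, and Fcgr2b was similar at 2234, 2734, 2759 and 2165 CPM. Stab1, Stab2 and Mrc1 were moderately higher at the pericentral end, with periportal to pericentral log2 ratios of -0.42, -0.39 and -0.30. Scarb1 lay between 126 and 144 CPM over the 4 bins.

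In Maf LSEC-KO LSECs Msr1 kept its direction, at 42.8, 67.4, 120 and 184 CPM (log2 ratio 2.10, 1.95 to 2.26). Cd36 was level, at 1858, 1901, 2024 and 1880 CPM, with a log2 ratio of 0.02 (-0.01 to 0.05). Lyve1 was 475 CPM in bin 1 and 240 CPM in bin 4, and Stab2 was 250 and 115 CPM. Of the 8 receptors, 1 was at least 2-fold higher and 1 at least 2-fold lower at the periportal end there, where 1.08% and 1.03% of 4360 genes were. Maf was itself 250 CPM in bin 1 and 57.1 CPM in bin 4 of this library, so the gradients of Stab2 and Lyve1 were seen beside a gradient of Maf, whose part in them was not tested.

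**Figure D3:**
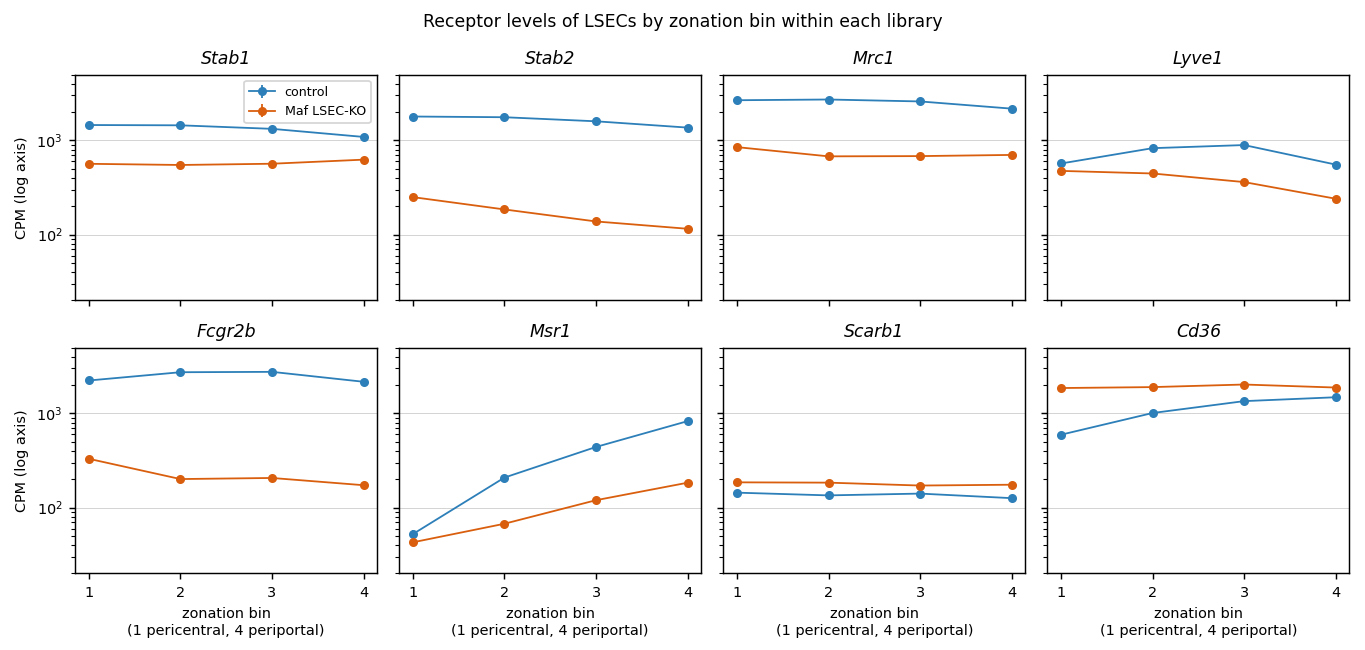
CPM (log axis) of each receptor in zonation bins 1 (pericentral) to 4 (periportal) of control (blue) and Maf LSEC-KO LSECs (orange), with 95% counting intervals that are mostly smaller than the points. Control Msr1 climbs from 52.3 to 827 CPM and control Cd36 from 594 to 1483 CPM, while Cd36 of Maf LSEC-KO LSECs stays between 1858 and 2024 CPM.

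Endothelial cells with at least 5 UMIs of the large-vessel gene Vwf were taken as a separate set and numbered 48 (control) and 278 (Maf LSEC-KO). Clec4g was 1002 CPM in this set and 3032 CPM in LSECs of the control, a log2 ratio of -1.60. In the Maf LSEC-KO library it was 1120 and 1524 CPM, a log2 ratio of -0.44. The set thus need not be the same kind of cell in both libraries. How many sinusoidal cells it holds was not tested. A single Vwf UMI was far more common in the Maf LSEC-KO library, where 991 endothelial cells against 160 in the control were set apart by it, so the stricter limit is used. The numbers at the stricter limit, 48 and 278, were also unequal. Both limits are UMI counts not adjusted for depth, and LSECs had a median of 8384 (control) and 14085.5 UMIs (Maf LSEC-KO). In the control, Stab2 was 223 CPM in these cells, Lyve1 120 CPM, Fcgr2b 599 CPM and Mrc1 683 CPM. Their log2 ratios to LSECs were -2.88, -2.59, -2.06 and -1.90. Cd36, at 1124 CPM, did not differ from LSECs beyond counting error (log2 ratio 0.03, -0.08 to 0.14). Cd36 is known from continuous capillary endothelium as well as from sinusoids.

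In the Maf LSEC-KO library the set had 108 CPM of Stab2, 88.4 CPM of Lyve1, 91.6 CPM of Fcgr2b and 608 CPM of Mrc1. The log2 ratios to LSECs of that library were -0.72 (-0.86 to -0.58) for Stab2 and -2.16 (-2.31 to -2.01) for Lyve1. They were -1.34 (-1.49 to -1.20) for Fcgr2b and -0.26 (-0.32 to -0.20) for Mrc1. For Lyve1 the interval overlaps that of the control (-2.95 to -2.25), and for the other 3 receptors the intervals of the libraries lie apart. Msr1 was 254 CPM, higher than in LSECs of that library by a log2 ratio of 1.42 (1.32 to 1.51). In the control set Msr1 was 209 CPM, lower than in control LSECs, at a log2 ratio of -0.80 (-1.07 to -0.54). Cd36 was 2031 CPM in the Maf LSEC-KO set, at a log2 ratio to LSECs of 0.08 (0.05 to 0.12). Msr1 and Cd36 both had a periportal gradient in control LSECs, but they did not share a pattern here.

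**Figure D4:**
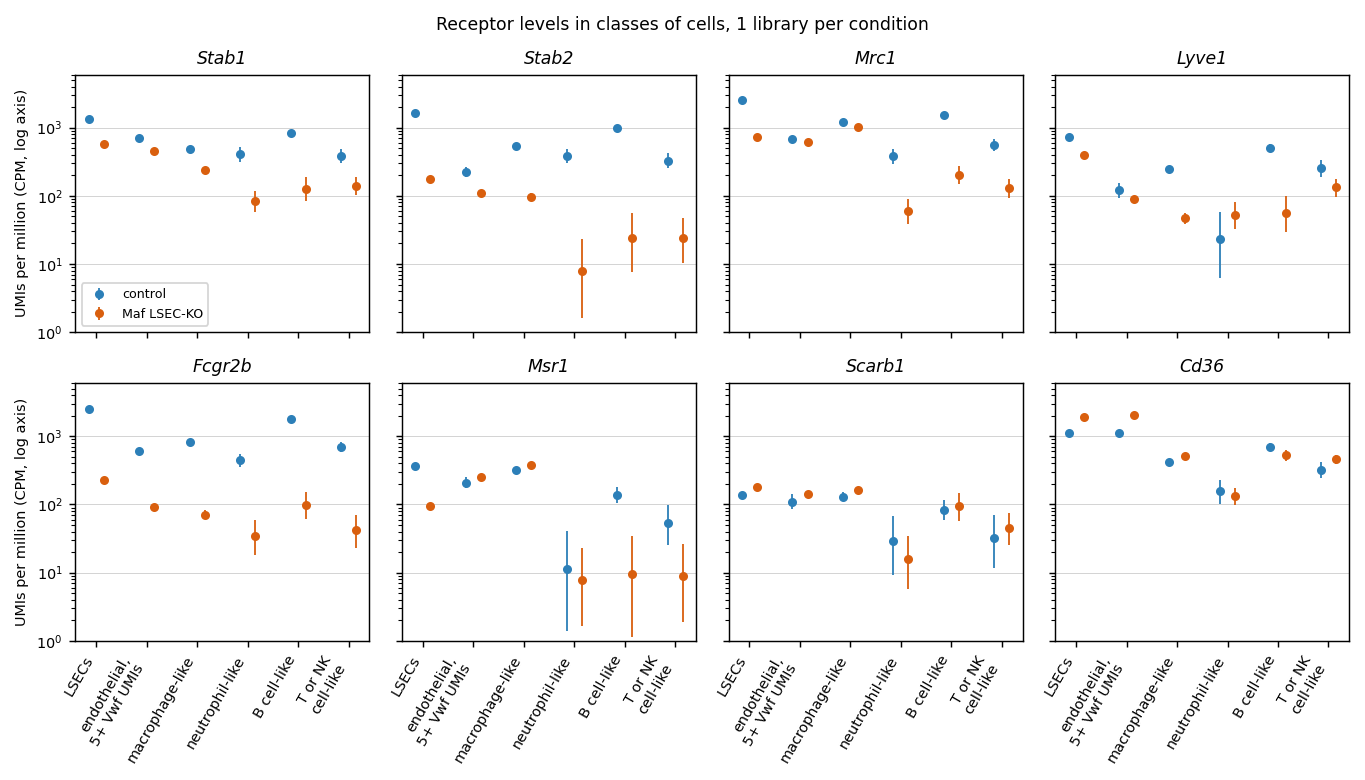
CPM (log axis) of each receptor by class of cells in the control (blue) and Maf LSEC-KO library (orange), with 95% counting intervals. Stab2 and Fcgr2b are lower in the Maf LSEC-KO library in all 6 classes, whereas Mrc1, Msr1 and Scarb1 of macrophage-like cells lie close together.

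Immune cells contained RNA of LSECs, so a receptor UMI in them is not by itself expression. Whether this was free RNA or came from LSECs captured together with immune cells was not tested. Clec4g, which immune cells should lack, was 997 CPM in control macrophage-like cells, 2008 CPM in control B cell-like cells and 605 CPM in control T or NK cell-like cells. It was 211, 351 and 376 CPM in the same classes of the Maf LSEC-KO library. Each receptor was therefore expressed as a fold of receptor to Clec4g UMIs over the same ratio in LSECs of that library. A value of 1 is what RNA with the mean ratio of those LSECs would give. The UMIs that LSEC RNA would give, stated below, assume that ratio.

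In control B cell-like cells these folds lay between 0.58 (Msr1) and 1.07 (Fcgr2b), and none was above 1 beyond counting error. Stab2 at 980 CPM in B cell-like cells thus had a fold of 0.90. In the 30 control T or NK cell-like cells 4 of the 8 folds were above 1 beyond counting error. They were 1.43 (1.12 to 1.80) for Stab1, 1.76 for Lyve1 (48 UMIs, where LSEC RNA would give 27.2), 1.41 (1.18 to 1.67) for Fcgr2b and 1.47 (1.13 to 1.89) for Cd36. In the 41 control neutrophil-like cells, which had 407 CPM of Clec4g, the folds of Stab1 (2.26, 1.77 to 2.86), Stab2 (1.74, 1.35 to 2.22) and Fcgr2b (1.32, 1.04 to 1.65) were above 1. Those of Lyve1 (0.24, 0.06 to 0.60) and Msr1 (0.23, 0.03 to 0.85) were below 1 there, on 4 and 2 UMIs. Folds in these small classes thus lay on both sides of 1. Whether the LSEC RNA in immune cells had the mean LSEC ratio was not tested, so a fold above 1 is not by itself expression.

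In macrophage-like cells 5 of the receptors, namely Msr1, Scarb1, Mrc1, Stab1 and Cd36, were above the LSEC ratio beyond counting error in both libraries. In the control, however, the folds of Stab1 (1.12) and Cd36 (1.17) were below those of T or NK cell-like cells (1.43 and 1.47). Neither gene thus stood out in control macrophage-like cells. Msr1 was 320 CPM in control and 373 CPM in Maf LSEC-KO macrophage-like cells, 2.67-fold (2.43 to 2.93) and 28.3-fold (26.2 to 30.4) over the LSEC ratio. Scarb1 was 130 and 160 CPM, at folds of 2.90 and 6.45. Mrc1 was 1189 and 1010 CPM, at folds of 1.42 and 10.0. Macrophages are known to use Msr1, Scarb1 and Mrc1. The folds were higher in the Maf LSEC-KO library, where both the LSEC levels of Mrc1 and Msr1 and the amount of Clec4g in macrophage-like cells were lower.

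Stab2 in macrophage-like cells was at a fold of 0.99 (0.92 to 1.06) for the control but 3.90 (3.40 to 4.45) for Maf LSEC-KO, where 226 UMIs were counted and LSEC RNA would give 57.9. Stab1 was at 1.12 (1.04 to 1.20) for the control. In Maf LSEC-KO macrophage-like cells 558 UMIs of Stab1 were counted where LSEC RNA would give 186, a fold with an interval of 2.76 to 3.27. Lyve1 did not exceed the LSEC ratio in Maf LSEC-KO macrophage-like cells, at 0.86 (0.70 to 1.03), and Cd36 was at 1.17 (1.08 to 1.27) in the control and 1.90 (1.80 to 2.02) in Maf LSEC-KO.

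Fcgr2b was at 0.99 and 2.21 in macrophage-like cells. It was highest among immune cells of the Maf LSEC-KO library in the 70 monocyte or dendritic cell-like cells, at 224 CPM, or 4.23-fold (3.50 to 5.06) over the LSEC ratio. In the control such cells were not separate from the macrophage-like cluster. In Maf LSEC-KO B cell-like cells, where Fcgr2b is the known Fc receptor, the fold was 1.86 (1.15 to 2.85) on 21 UMIs. Scarb1 had a larger fold in the same cells, 2.29 (1.40 to 3.54) on 20 UMIs. No other receptor was above 1 there beyond counting error.

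**Figure D5:**
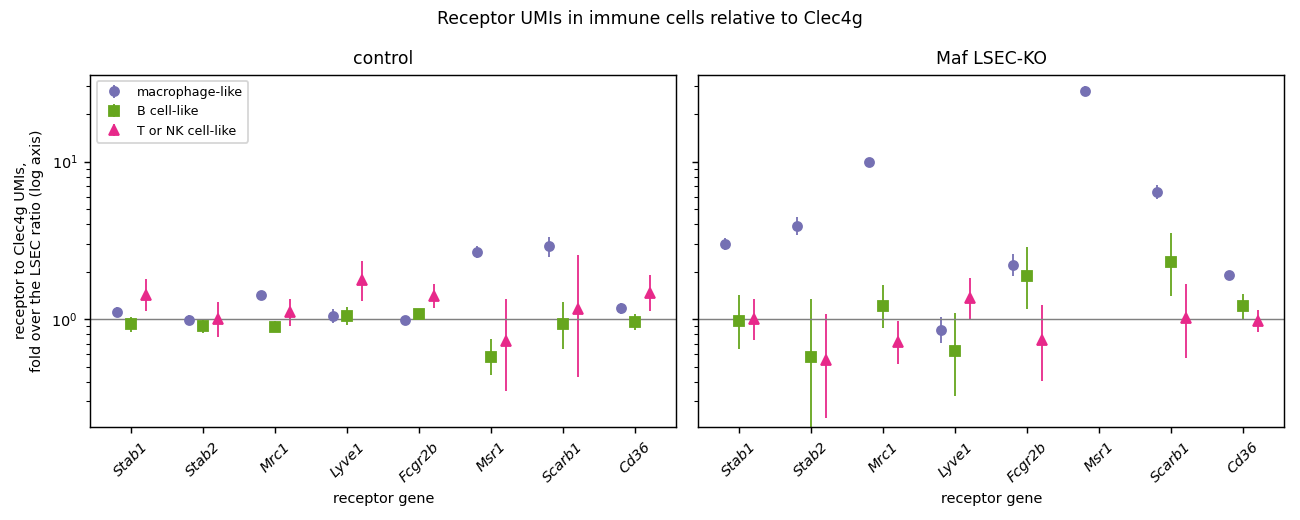
Ratio of receptor to Clec4g UMIs in macrophage-like, B cell-like and T or NK cell-like cells, as a fold (log axis) over the same ratio in LSECs of the library, with 95% counting intervals and values of more than 3 UMIs. In the control, B cell-like cells lie at or below 1 (grey line) within counting error, and Msr1, Mrc1 and Scarb1 of macrophage-like cells lie above it in both panels.

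Between the libraries, 4 of the 8 receptors were at least 2-fold lower in Maf LSEC-KO than in control macrophage-like cells, against 6.64% of 4064 genes, and none was at least 2-fold higher, against 2.39%. The median log2 ratio was -0.64 for the receptors and 0.02 for all genes. The 4 were Fcgr2b (812 and 71.1 CPM, log2 ratio -3.51), Stab2 (533 and 96.2 CPM, -2.47), Lyve1 (249 and 46.8 CPM, -2.41) and Stab1 (492 and 237 CPM, -1.05), and Clec4g was lower as well, by a log2 ratio of -2.24. Its part in these ratios was not tested. Among macrophage-like cells without a Clec4g UMI (75 control, 233 Maf LSEC-KO), only Fcgr2b of the 8 was at least 2-fold lower, at a log2 ratio of -3.04 on 47 and 15 UMIs. There Stab2 was at -0.45, Lyve1 at -0.40 and Stab1 at 0.22, and Cd36 was at 1.17. Monocyte or dendritic cell-like cells, with 224 CPM of Fcgr2b, were split from the macrophage-like class only in the Maf LSEC-KO library. The part of this difference in makeup in the Fcgr2b ratios was not tested.

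Of the 5 receptors above the LSEC ratio in macrophage-like cells of both libraries, Stab1 was thus 2-fold lower over all such cells and the others were within 2-fold. Mrc1 had a log2 ratio of -0.24 (-0.33 to -0.15), Msr1 of 0.22 (0.06 to 0.38), Scarb1 of 0.30 (0.05 to 0.56) and Cd36 of 0.25 (0.11 to 0.39). With macrophage-like cells limited to those with at least 10 C1q UMIs, a limit chosen after the values were seen, these were -0.22, -0.11, -0.01 and 0.63, and Stab1 was at -0.50. Fcgr2b was at -2.54 (-2.82 to -2.27) under that limit. Among macrophage-like cells without a Clec4g UMI, Mrc1 was at 0.43, a change of sign, and Cd36 at 1.17, past 2-fold. Msr1 was at 0.14 and Scarb1 at 0.05 there. At the LSEC ratio, LSEC RNA would give 840 of the 1189 CPM of Mrc1 in control macrophage-like cells. In those of Maf LSEC-KO it would give 101 of the 1010 CPM. How far LSEC RNA sets the Mrc1 ratio was not tested. Maf was 1583 and 1497 CPM in macrophage-like cells, a cell type that the Cre line was not designed to target. These cells also held LSEC RNA, with 997 and 211 CPM of Clec4g, and Maf was 3478 and 121 CPM in LSECs. The part of LSEC RNA in the Maf levels of macrophage-like cells was not tested. Their closeness is thus not by itself equal expression.

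Genes with related roles were counted in LSECs for context, without the 8 receptors. Of the other scavenger and lipoprotein receptors, 5 of 23 reached 50 CPM. Of these, 1 was at least 2-fold lower, against 5.45% of all 4512 genes, and none higher, against 8.31%. The lower gene was Scarb2, a lysosomal relative of Scarb1 and Cd36 (347 and 160 CPM, log2 ratio -1.12). Lrp6, a co-receptor of Wnt signalling, was 210 and 105 CPM.

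The lectin and mannose receptor family had 5 such genes, of which 2 were at least 2-fold lower, against 5.45% of all genes. They were Pla2r1, a relative of Mrc1 (147 and 29.7 CPM, log2 ratio -2.31), and Clec1b (320 and 115 CPM, -1.48). None was at least 2-fold higher, against 8.31%. Both Fc receptor genes that reached 50 CPM beside Fcgr2b were at least 2-fold lower, against the same 5.45%. Fcgrt, the neonatal Fc receptor that recycles immunoglobulin G and albumin, was 651 and 74.6 CPM (log2 ratio -3.12), and Fcer1g, the shared signalling chain, was 132 CPM in the control and lower in Maf LSEC-KO LSECs by a log2 ratio of -1.14.

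In the hyaluronan system 3 genes were counted. The hyaluronan-degrading Cemip2 was at -0.68 and Hyal2 at -0.12, and Hmmr, which is also a mitotic spindle gene, was at 2.78 from 7.54 to 51.7 CPM. Of 6 genes of lipid uptake and efflux, 2 were at least 2-fold higher, against 8.31% of all 4512 genes, and none lower, against 5.45%, with a median log2 ratio of 0.47. They were the cholesterol exporter Abca1 (37.2 and 99.5 CPM, 1.42) and the fatty acid-binding protein gene Fabp5 (657 and 1399 CPM, 1.09), and Fabp4 was at 0.72.

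Receptors of this kind are internalised through clathrin. Of 27 clathrin endocytosis genes, 8 were at least 2-fold lower, against 5.45% of all genes, and none higher, against 8.31%, with a median of -0.33. The lowest were the cargo adaptor Dab2 (1063 and 248 CPM, -2.10), the scaffold Itsn1 (151 and 39.1 CPM, -1.95) and the AP-2 subunit Ap2a2 (312 and 91.0 CPM, -1.78), while the AP-2 subunit Ap2b1 was at 0.27. Of 25 endosome sorting and recycling genes, 2 were at least 2-fold lower, a share near the 5.45% of all genes, and none higher, with a median of -0.12. These were Snx2 (349 and 88.2 CPM, -1.98) and Ehd3 (4217 and 1958 CPM, -1.11), while Ehd4 was at 0.96.

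Genes most like each receptor were sought over 16 groups of cells (class by library) by Pearson's r of log2(CPM + 5) among 7675 genes. For Fcgr2b these were Dnase1l3 (0.97), Plxnc1 and Adam23. For Stab2 they were Cyp4b1 (0.96), Adam23 and Selenop, and for Stab1 they were F8 (0.98), Tfpi and Ehd3. Mrc1 was most like Mertk (0.95), Cd38 and Stab1, and Lyve1 most like Stim2 (0.96), Zeb1 and Fam167b. Msr1 was closest to Rab3il1 (0.93), Tmem106a and Rin2. Scarb1 was most like Sod1 (0.94), Tmcc3 and Adam10, and Cd36 most like Nes (0.98), Pecam1 and Nid1. The groups share 2 libraries, and LSEC RNA is also found in immune cells, so r is a description.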

How the data were processed

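The authors sequenced 1 library per condition with 10x Genomics 3′ v3.1 chemistry and deposited the UMI counts per gene and barcode that Cell Ranger 6.0.2 gave on mm10, per the file headers and the submitters' notes. Barcodes with at least 500 UMIs were deposited. The authors also subtracted a profile of empty droplets and analysed cells in Seurat 5.0.1, but that subtraction is not in the deposited counts and was not repeated here, so free RNA remains in them.

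From these counts, barcodes below 1500 UMIs or 750 genes were dropped. Scrublet's own cut-off found no doublet (0 of the cells in either library). Instead the highest-scoring 225 control and 308 Maf LSEC-KO cells were removed, at 0.8% per 1000 barcodes, a rule chosen with the scores known. Cells were clustered per library in Seurat 5.3.0 (R 4.3.3) without the receptors and named from markers. Endothelial-like clusters led by genes of other cell types (282 Maf LSEC-KO cells), 141 control cells of mixed clusters and 36 cholangiocyte-like cells belong to no class compared between the libraries. They are among the 16 groups of cells over which the genes most like each receptor were sought. LSEC clusters came from both libraries together at resolution 0.3.

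CPM was computed over UMIs outside mitochondrial and ribosomal protein genes. Intervals are exact Poisson for a level and exact conditional binomial for a ratio. A gene counted as lower or higher at 2-fold among genes that reached 50 CPM in at least 1 of the compared groups. Thinning, intervals and ratios were tested on simulated data. Promoters were read from RefSeq and positions from GENCODE M21. In each wider list the genes named are among the 3 highest and 3 lowest log2 ratios of at least 50 CPM, and likeness names the top 3 genes. The receptors, lists and rules were chosen with earlier results of these data known.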

Additional observations from a re-analysis of the deposited data

Results flagged for a closer look

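For 2 receptors the direction between the libraries was opposite in LSECs and in another class of cells, each class being 1 library per condition, and the difference between the classes was not tested. Msr1 had a log2 ratio, Maf LSEC-KO to control, of -1.94 in LSECs, but of 0.22 (0.06 to 0.38) in macrophage-like cells and of 0.28 (0.01 to 0.56) in endothelial cells with at least 5 Vwf UMIs. In macrophage-like cells with at least 10 C1q UMIs, Msr1 was at -0.11 (-0.29 to 0.08), so the direction there depends on which cells are counted. Cd36 was at 0.80 in LSECs and at -0.40 (-0.73 to -0.08) in B cell-like cells, where its ratio to Clec4g was 0.96 (0.85 to 1.08) and 1.20 (0.99 to 1.45) times that of LSECs, not above 1 beyond counting error.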

How the results depend on the processing

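The count of 5 receptors at least 2-fold lower in Maf LSEC-KO LSECs was 5 or 6 under every alternative run, and the count at least 2-fold higher was 0 except with a 1.5-fold limit, where Cd36 made it 1. The median log2 ratio of -1.52 became -1.71 with UMIs of all genes, -1.63 with the median of ratios, -1.64 with TMM (edgeR), -1.36 with the mean of per-cell CPM, -1.36 after thinning, -1.42 with Vwf-positive cells kept, -1.54 without cells above 10% mitochondrial UMIs and, chosen after seeing the data, -1.53 with clusters led by other genes included, -1.51 without LSECs of cluster 8 and -1.63 without Maf LSEC-KO LSECs holding a Maf UMI. No log2 ratio of a single receptor between LSECs of the libraries changed sign under these. Lyve1 crossed 2-fold in some of these, ranging from -1.08 to -0.83. The count of receptors lower in macrophage-like cells went from 4 to 1 without cells holding a Clec4g UMI, and Mrc1 went from -0.24 to 0.43 there. With at least 2 in place of 5 Maf UMIs, 4 in place of 6 receptors were at least 2-fold higher than without Maf. With the share of 4 pericentral genes as the zonation score, Msr1 had a log2 ratio of 2.93 and Cd36 of 0.94, and at clustering resolution 0.5 the control range of Msr1 over clusters was 1.39 in place of 2.04, below that of Lyve1. With every gene that has a UMI counted, 14.4% of genes in place of 5.45% were at least 2-fold lower. No paired analysis was possible because each condition is 1 library. These results are limited by the 1 pool of mice per condition and by the LSEC RNA in immune cells. Classes of under 100 cells rest on few UMIs of Msr1 and Scarb1.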
